A study of Mus musculus with 15 samples.

Results

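Transcripts of 2 metallothioneins, 3 superoxide dismutases, 2 glutathione peroxidases, catalase and haem oxygenase 1 were followed through 5 flow-sorted mouse cell populations. The 9 genes (Mt1, Mt2, Sod1, Sod2, Sod3, Gpx1, Gpx3, Cat and Hmox1) were picked by symbol, and all 9 were found among the 10222 gene symbols of the expression table. Each population had 3 libraries, 15 in all. Il33+ WAT-MSC and Il33– WAT-MSC were PDGFRα+ mesenchymal stromal cells of white adipose tissue (WAT), which the labels call mesenteric, with or without citrine from the Il33 locus. Lung Il33+ MSC were the citrine-positive stromal cells of lung. The remaining populations were CD31+ endothelial cells of WAT and EpCAM+ epithelial cells of lung. All came from C57BL/6 mice carrying the Il33-citrine reporter, were taken without treatment and were sorted directly ex vivo; the age of the mice and the number of alleles replaced by citrine in these mice are not given in the sources used here. The gate that the study's methods give for WAT-MSC took cells negative for lineage markers, CD45, EpCAM, CD31 and CD24. These cells were positive for PDGFRα, CD34, Sca1 and podoplanin. The methods give no separate gate for lung stromal cells. Whether the 3 libraries of a population came from separate mice is also not given, so p-values measure the spread between these libraries.

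Metallothioneins are small cysteine-rich proteins that bind zinc and copper. Their genes are switched on by metals through a metal-sensing transcription factor, Mtf1, and also by glucocorticoids and stress. Superoxide dismutases turn superoxide into hydrogen peroxide, with Sod1 mainly in the cytosol, Sod2 in mitochondria and Sod3 secreted and held in the extracellular matrix. Hydrogen peroxide is then removed by catalase, mostly in peroxisomes, and by the selenium-containing glutathione peroxidases, of which Gpx1 works inside the cell and Gpx3 is secreted. Hmox1 is the inducible enzyme that breaks down haem, and it is a classic target of the oxidative stress factor NRF2 (Nfe2l2).

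Values are RPKM, read numbers scaled to the length of the transcript and to the mapped reads of the library, and were summed over the listed transcripts of a symbol. Libraries held 42711843 to 60773158 alignments (median 53038567). Il33 itself lay between 38.7 and 78.5 RPKM in Il33+ WAT-MSC and between 4.31 and 6.76 in Il33– WAT-MSC. The summed RPKM of 9 stromal markers, led by Dcn and Col1a1, was 5002 to 10355 in the 9 MSC libraries, 2211 to 4360 in the endothelial libraries and 117 to 213 in the epithelial libraries. A list of 8 endothelial markers, led by Cdh5 and Pecam1, summed to 476.7 to 527.9 in endothelial cells and to no more than 66.1 elsewhere, and 8 lung epithelial markers, led by Scgb1a1 and Sftpc, summed to at least 162052 in epithelial cells and to no more than 543.9 elsewhere. Scgb1a1 alone made up 57.7 to 62.9% of the summed RPKM of the epithelial libraries. Mesothelial markers (7 genes, led by Krt19 and Lrrn4) summed to between 8.6 and 209 RPKM in all libraries, with the highest sum in endothelial cells. In the epithelial libraries they summed to 83.1 to 156 RPKM. There Krt19 had a mean of 121 RPKM, and the next highest gene of the list, Upk3b, 2.34 RPKM. Replicate 1 of the endothelial cells had the largest share of transcripts listed at 0, 10.9%.

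Mt2 and Mt1 are neighbours on chromosome 8 (GRCm38, Mt2 at chr8:94172664-94173568 and Mt1 at chr8:94179082-94180327, both on the plus strand), with 5513 bases between them. The metal response element, the short motif bound by Mtf1, was searched on both strands as TGCACNC or TGCGCNC in windows from 250 bases before to 50 bases after each RefSeq start. It was found 3 times at Mt1, with first bases at -23, 3 and 21 relative to that start. At Mt2 it was found 4 times, at -223, -128, -50 and 5. Of 32851 promoters, 25.7% held it at least once, 1.97% at least 3 times and 0.517% at least 4 times. The windows of Sod1, Sod2, Gpx1, Gpx3 and Cat held none, and windows for Sod3 and Hmox1 were not used here. An antioxidant response element, the motif read by NRF2 (TGACNNNGC, both strands), was found once at Mt2, once at Sod1 and in 12.4% of all promoters. Sequence outside the windows was not searched, so a motif that lies beyond them, at Mt1 or elsewhere, would be missed. The stretches below show 3 of the 7 metal response elements and the antioxidant response element of Mt2. They are RefSeq sequence of GRCm38.p6, plus strand, 5′ to 3′, at chr8:94179055-94179084, chr8:94172384-94172413, chr8:94172479-94172508 and chr8:94172529-94172558; capitals mark the motif, and the number is the position of its first base relative to the RefSeq start of the transcript (chr8:94179089 for Mt1 and chr8:94172618 for Mt2), which differs from the GENCODE gene start given above.
Mt1 metal response element at -23: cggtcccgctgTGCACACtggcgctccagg
Mt2 metal response element at -223: agcatcgcctcTGCACCCggcccctcgggc
Mt2 metal response element at -128: cgcagacccttTGCGCTCagctcctttgct
Mt2 antioxidant response element at -79: aaagggggtgTGACTCAGCgcggggggtgg
A match is a run of letters and not a measured binding site. The relation of these motifs to the levels of Mt1 and Mt2 was not tested.

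Both metallothioneins were among the most abundant transcripts of stromal cells. By mean RPKM, Mt1 ranked 22 and Mt2 ranked 27 of 10222 symbols in Il33+ WAT-MSC, and 24 and 26 in lung Il33+ MSC. In Il33+ WAT-MSC the libraries of Mt1 were at 466, 1072 and 817 RPKM, with a mean of 785 ± 305 (SD, n = 3). It was at 433, 778 and 482 RPKM in Il33– WAT-MSC (565 ± 187, n = 3) and at 644, 516 and 1184 RPKM in lung Il33+ MSC (781 ± 354, n = 3). The 3 stromal populations overlapped. All 9 stromal libraries lay above the other 6: Mt1 was at 157, 185 and 267 RPKM in endothelial cells (203 ± 57.3, n = 3) and at 304, 157 and 324 RPKM in epithelial cells (262 ± 91.3, n = 3).

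Mt2 was at 513, 958 and 666 RPKM in Il33+ WAT-MSC, at 301, 633 and 395 RPKM in Il33– WAT-MSC and at 435, 474 and 1242 RPKM in lung Il33+ MSC. It was at 154, 176 and 353 RPKM in endothelial cells and at 156, 106 and 189 RPKM in epithelial cells, so the highest endothelial library passed the lowest Il33– WAT-MSC library. The same libraries were high for both genes: replicate 2 in each WAT-MSC population, and replicate 3 in lung Il33+ MSC and in endothelial cells. Over the 15 libraries Pearson's r of log2(RPKM + 1) between Mt1 and Mt2 was 0.94, and it was 0.92 once each population's mean had been subtracted. The libraries differ in population, lane and starting cells, so this r is a description. The ratio of Mt1 to Mt2 RPKM was 1.72 ± 0.236 in epithelial cells (1.95, 1.48 and 1.71), 1.08 ± 0.163 in Il33+ WAT-MSC, 1.30 ± 0.122 in Il33– WAT-MSC, 1.17 ± 0.274 in lung Il33+ MSC and 0.942 ± 0.160 in endothelial cells (SD, n = 3 each). The epithelial ratios reached or passed the highest of the stromal ratios, 1.48 in replicate 1 of lung Il33+ MSC. An antisense gene, Gm45774, shares 432 of the 588 exon bases of Mt2 (73.5%), and the library kit does not mark strand, so reads of the pair cannot be told apart.

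**Figure D1:**
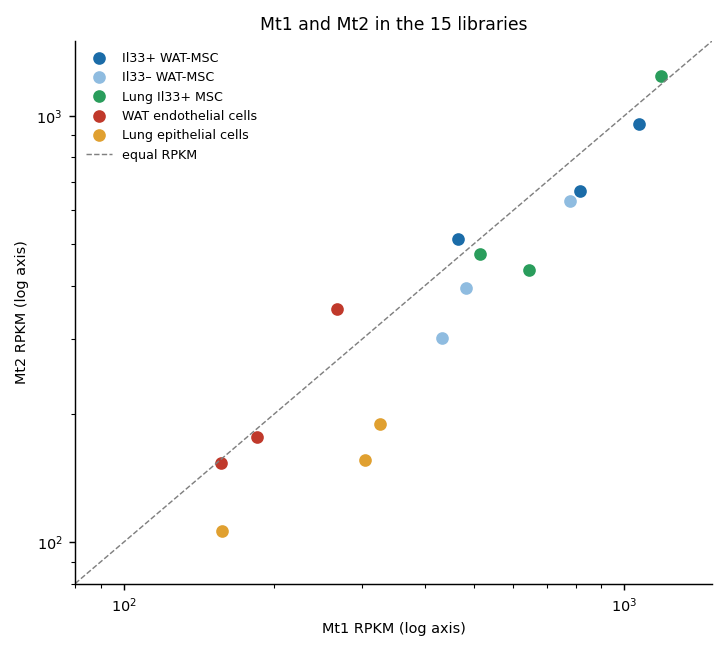
Mt1 (x axis) against Mt2 (y axis) in RPKM, both on log axes, with 1 point for each of the 15 libraries and a dashed line of equal RPKM. The 3 epithelial libraries lie below the line at Mt1 to Mt2 ratios of 1.48 to 1.95, and the stromal libraries fill the upper right.

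Among superoxide dismutases, the secreted form led in every stromal and endothelial library and the cytosolic form led in every epithelial library. Sod3 was at 486, 486 and 628 RPKM in lung Il33+ MSC (534 ± 82.1, n = 3). It was at 227, 181 and 317 RPKM in Il33+ WAT-MSC (242 ± 69.2, n = 3) and at 228, 255 and 312 RPKM in Il33– WAT-MSC (265 ± 43.2, n = 3). Endothelial cells had 63.9, 91.0 and 189 RPKM (115 ± 65.9, n = 3) and epithelial cells 21.1, 33.2 and 48.7 RPKM (34.3 ± 13.8, n = 3). The lung stromal libraries stood above all others and the epithelial libraries below all others, while both WAT-MSC populations overlapped with each other and the endothelial replicate 3 with Il33+ WAT-MSC. Sod1 was at 96.1, 166 and 163 RPKM in epithelial cells (142 ± 39.4, n = 3), above the other 12 libraries, which ran from 25.5 RPKM in replicate 1 of Il33– WAT-MSC to 80 RPKM in replicate 3 of the endothelial cells. Sod2 stayed between 6.15 and 30.1 RPKM in all 15 libraries, and each population overlapped with the next in the order of means, from epithelial cells (22.2 ± 7.47) through lung Il33+ MSC (16.7 ± 7.87), Il33– WAT-MSC (12.5 ± 5.76) and Il33+ WAT-MSC (12.3 ± 4.13) to endothelial cells (11.8 ± 3.28; SD, n = 3 each).

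As a share of the summed RPKM of the 3 dismutases within a library, Sod3 made up 88.0 ± 0.724% in lung Il33+ MSC, 83.1 ± 4.24% in Il33– WAT-MSC and 79.1 ± 3.97% in Il33+ WAT-MSC (SD, n = 3 each). It made up 61.7 ± 6.12% in endothelial cells and 16.9 ± 2.75% in epithelial cells. Sod1 made up the largest part in epithelial cells, 71.4 ± 5.25%, and 31.2 ± 4.02% in endothelial cells, 16.8 ± 4.44% in Il33+ WAT-MSC, 13.1 ± 3.17% in Il33– WAT-MSC and 9.31 ± 0.506% in lung Il33+ MSC. Sod2 made up 2.66 to 11.6% by population mean. These shares are formed within a library, so the large share of Scgb1a1 in epithelial RNA cancels from them. Across the 12 stromal and endothelial libraries the lowest Sod3 share was 54.8%, and the highest in epithelial cells was 20.1%.

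**Figure D2:**
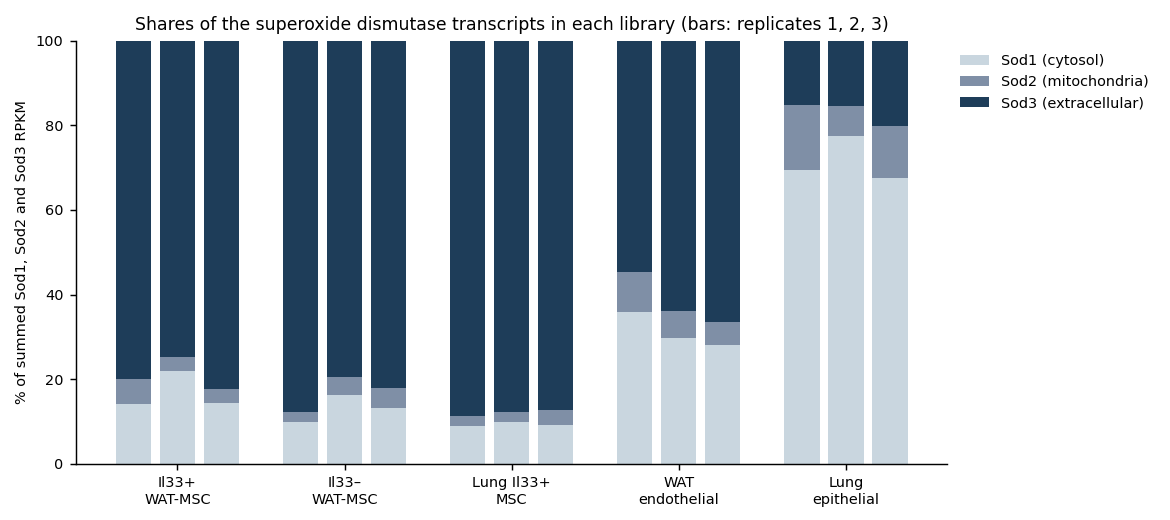
Stacked bars, from 0 to 100%, give the share of Sod1, Sod2 and Sod3 in their summed RPKM for each of the 15 libraries, grouped by population. Sod3 fills 74.7 to 88.8% of the stromal bars, 54.8 to 66.5% of the endothelial bars and 15.2 to 20.1% of the epithelial bars.

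Gpx3, the secreted glutathione peroxidase, stood beside the metallothioneins in stromal cells and ranked 20 of 10222 symbols in Il33– WAT-MSC. It was at 732, 740 and 847 RPKM in Il33+ WAT-MSC (773 ± 64.2, n = 3), at 566, 816 and 818 RPKM in Il33– WAT-MSC (734 ± 145, n = 3) and at 684, 680 and 514 RPKM in lung Il33+ MSC (626 ± 97.2, n = 3). The 3 endothelial libraries had 113, 279 and 405 RPKM (266 ± 147, n = 3), a 3.59-fold range within 1 population and the widest of Gpx3. Epithelial cells had 46.2, 46.7 and 35.1 RPKM (42.6 ± 6.55, n = 3). The stromal, endothelial and epithelial libraries formed 3 ranges that did not overlap. Its minor transcript made up 4.48 to 4.49% of the symbol in every library, so the sum and the leading transcript of Gpx3 gave the same ratios between libraries.

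Gpx1 varied far less between populations, from 32.3 ± 6.76 RPKM in epithelial cells to 54.6 ± 22.1 RPKM in endothelial cells (SD, n = 3 each), and each population overlapped with the next in order. Its libraries were at 36.1, 42.6 and 39.8 RPKM in Il33+ WAT-MSC, at 30.8, 30.7 and 40.6 in Il33– WAT-MSC and at 41.01, 43.1 and 69.9 in lung Il33+ MSC. They were at 32.0, 55.4 and 76.3 RPKM in endothelial cells and at 29.6, 27.4 and 40.0 in epithelial cells. The transcript with the highest median carried 71.1 to 97.1% of the symbol in 14 libraries, but 14.4% in replicate 1 of the epithelial cells. RPKM of Gpx3 exceeded that of Gpx1 19.7 ± 2.03 times in Il33+ WAT-MSC, 21.7 ± 4.32 times in Il33– WAT-MSC, 13.3 ± 5.14 times in lung Il33+ MSC, 4.62 ± 0.965 times in endothelial cells and 1.38 ± 0.443 times in epithelial cells (SD, n = 3 each); the epithelial libraries had 1.56, 1.71 and 0.876. With the most abundant transcript standing for each gene the epithelial ratios were 10.4, 2.15 and 1.09 (4.53 ± 5.07, SD, n = 3), so neither the size of the epithelial ratio nor its direction in replicate 3 held between these choices.

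Cat was the reverse of Gpx3 in the lung. Epithelial cells had 388, 380 and 334 RPKM (367 ± 29.3, n = 3), rank 26 of 10222 symbols, and the other 12 libraries had between 39.3 and 121 RPKM. Il33+ WAT-MSC had 57.6, 121 and 83.0 RPKM (87.3 ± 32.1, n = 3), Il33– WAT-MSC 51.7, 58.8 and 52.4 (54.3 ± 3.94), lung Il33+ MSC 64.1, 46.7 and 53.2 (54.7 ± 8.79) and endothelial cells 65.8, 55.5 and 39.3 (53.5 ± 13.4). Outside epithelial cells each population overlapped with the next.

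Hmox1 spread more within the WAT populations than between populations. It was at 19.0, 66.7 and 22.2 RPKM in Il33+ WAT-MSC, at 11.4, 56.1 and 38.8 in Il33– WAT-MSC and at 23.2, 50.0 and 19.7 in endothelial cells, and replicate 2 was the highest of each. Lung Il33+ MSC had 28.2, 30.9 and 50.5 RPKM and epithelial cells 14.1, 17.5 and 12.7 RPKM. In Il33– WAT-MSC the highest library exceeded the lowest 4.92 times, the widest range of any of the 9 genes in any population.

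**Figure D3:**
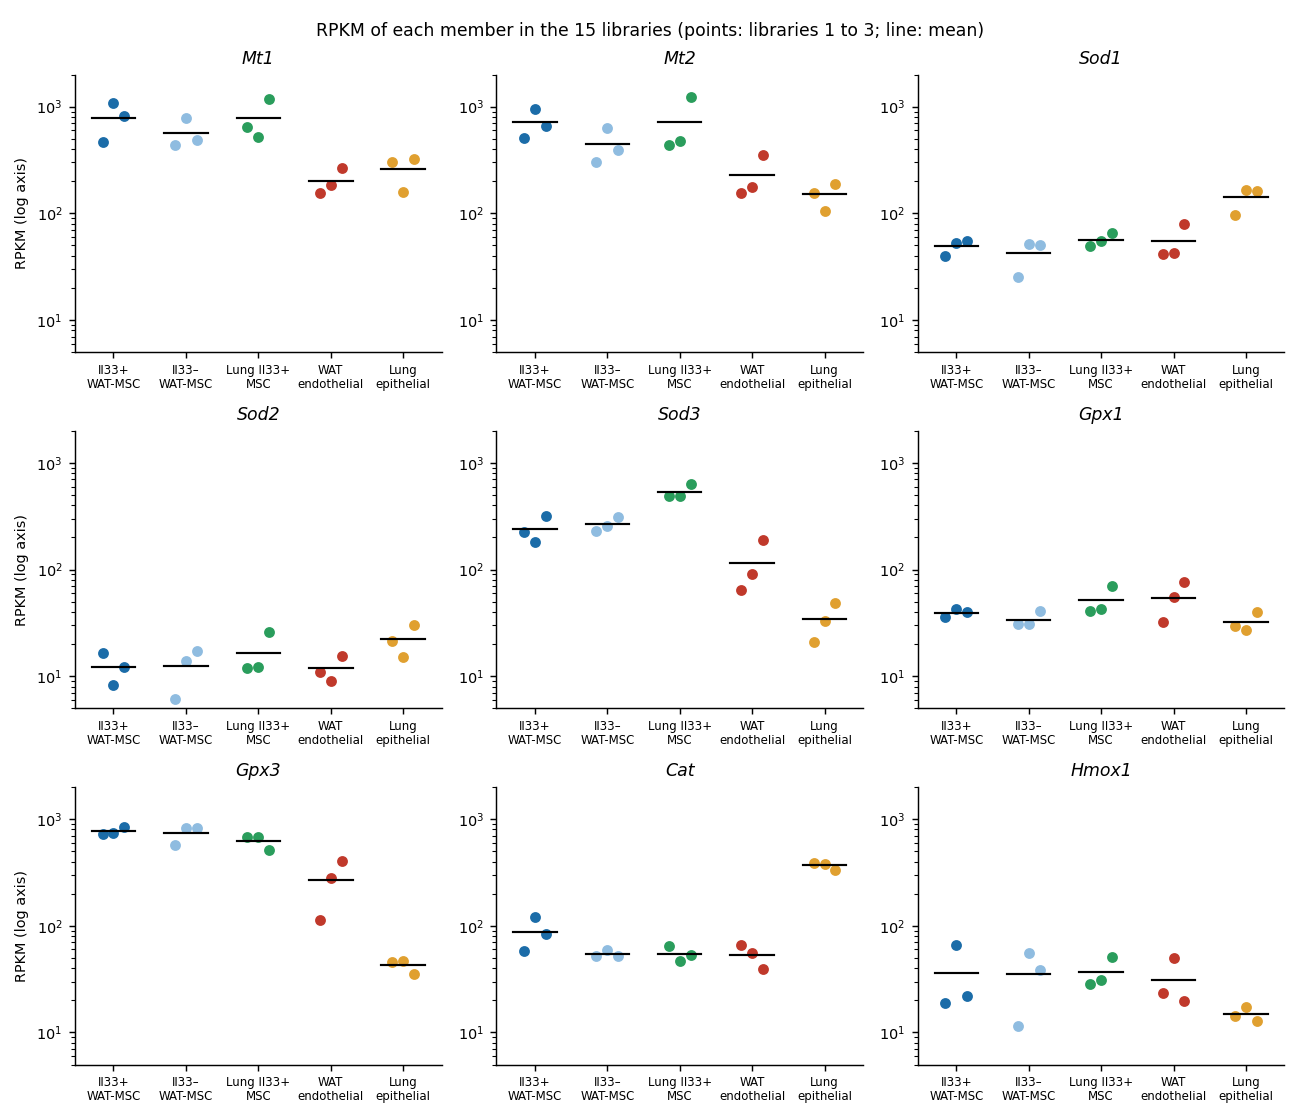
RPKM of the 9 genes on a log axis (y) in the 5 populations (x), with 1 point per library in the order of replicates 1 to 3 and a line at the mean. Sod3 and Gpx3 fall stepwise from stromal to endothelial to epithelial cells, Cat and Sod1 stand high in epithelial cells alone, and the points of Sod2, Gpx1 and Hmox1 overlap between most populations.

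A test over all 5 populations at once (limma F-test on log2(RPKM + 1), Benjamini-Hochberg adjustment over 9981 genes, threshold 0.05) passed for 6 of the 9 genes, beside 42.7% of all genes tested. These were Gpx3 (adjusted p = 3.73e-07), Cat (9.11e-07), Sod3 (2.74e-06), Mt2 (0.00154), Mt1 (0.00169) and Sod1 (0.00290), and each stayed past the threshold in 22 of 22 alternative settings. Gpx1 (adjusted p = 0.210), Sod2 (0.309) and Hmox1 (0.355) did not pass.

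The pairwise comparisons used the same test on the 6 libraries concerned, and all 9 genes passed its filter on low values in each. Il33+ WAT-MSC served in 3 of them and lung Il33+ MSC in 2, so the comparisons share libraries and are given side by side. The first asked how stromal cells of WAT with and without citrine from the Il33 locus differed. None of the 9 genes passed, beside 1.57% of 8448 genes tested. Cat had the lowest p of the 9 before adjustment in limma, 0.0459. No member's libraries were separated, beside 17.5% of all genes. The median log2 difference of the 9 genes was 0.22, and -0.01 over all genes. Values (Il33+ minus Il33–) were 0.71 ± 0.33 for Mt2 (SE; adjusted p = 0.441), 0.61 ± 0.27 for Cat (0.417) and 0.44 ± 0.34 for Mt1 (0.686). The other 6 lay between -0.16 (Sod3) and 0.27 (Sod1). In none of the 14 alternative settings did a member pass.

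Of 102 other genes of redox and metal metabolism and of the stress response, listed in 6 groups, 84 could be tested between Il33+ and Il33– WAT-MSC, and 4 passed (4.76%). Nox4, an NADPH oxidase that makes hydrogen peroxide, was the only one of the 4 higher in Il33+ cells, at 13.4 ± 2.79 against 2.72 ± 0.297 RPKM (log2 1.94 ± 0.29, adjusted p = 0.00732). Ggt5, a glutathione-cleaving enzyme, was lower by a log2 difference of -1.85 (adjusted p = 0.00613). Cp, the copper ferroxidase ceruloplasmin, was at 49.6 ± 8.72 against 104 ± 14.2 RPKM (log2 -1.05, adjusted p = 0.0445), and Txnip, which binds and inhibits thioredoxin, at 27.7 ± 2.01 against 57.2 ± 3.45 RPKM (log2 -1.02, adjusted p = 0.0362). The calls of Cp and Txnip were each lost in 9 of 14 alternative settings and that of Nox4 in 2. The same libraries were also separated by mesothelial markers (37.2 to 120 summed RPKM in Il33+ and 21.9 to 36.5 in Il33– WAT-MSC) and by macrophage markers (6.65 to 11.3 and 17.6 to 40.5), and the part of such cells in these differences was not tested. No gene of the NRF2, haem and NADPH group or of the stress group passed. The medians of the 6 groups lay between -0.22 and -0.03 (log2), beside -0.01 over all genes.

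**Figure D4:**
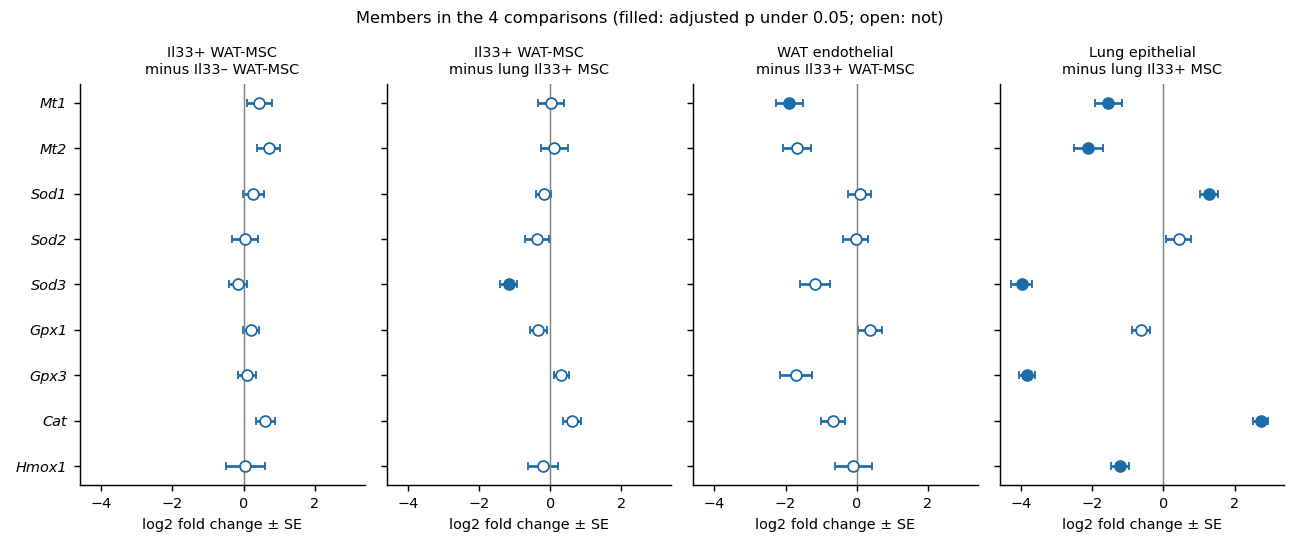
The log2 fold change (x axis, on log2(RPKM + 1), bars ± SE) of the 9 genes (y axis) in the 4 pairwise comparisons, with filled points where the adjusted p was under 0.05. No point is filled between Il33+ and Il33– WAT-MSC, 1 is filled between WAT and lung MSC (Sod3, -1.17) and between endothelial cells and MSC (Mt1, -1.90), and 7 are filled between lung epithelial and stromal cells.

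Between citrine-positive stromal cells of WAT and lung, 1 of the 9 genes passed, beside 6% of 8554 genes tested. Sod3 was 2.21 times as high in lung Il33+ MSC as in Il33+ WAT-MSC (log2, WAT minus lung, -1.17 ± 0.24, adjusted p = 0.0158). The libraries of Sod3 and Gpx3 did not overlap, 2 of 9 beside 23.1% of all genes. Gpx3 went the other way, 1.24 times as high in WAT, and did not pass (log2 0.31 ± 0.21, adjusted p = 0.492). Mt1 (log2 0.02 ± 0.36, and -0.01 with median-ratio scaling) and Mt2 (0.12 ± 0.39) differed by less than their SE. Cat was at 0.61 ± 0.27 (adjusted p = 0.268). The median of the 9 genes was -0.19, and 0.03 over all genes. The call of Sod3 was lost in 6 of 14 alternative settings, in which its log2 difference stayed between -1.04 and -1.23. These included leaving out replicate 1 of Il33+ WAT-MSC (adjusted p = 0.0586) and replicates 1 (0.0565), 2 (0.0751) or 3 (0.0620) of lung Il33+ MSC. The macrophage list, 7 of 9 genes measured and led by Lyz2 and Chil3, summed to 184 to 236 RPKM in lung Il33+ MSC and to 6.65 to 11.3 RPKM in Il33+ WAT-MSC; the part of such cells in the Sod3 difference was not tested.

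In the same comparison 11 of 86 context genes passed (12.8%), 4 higher in WAT and 7 higher in lung. Among all genes tested, 2.5% passed as higher in WAT and 3.5% as higher in lung. The group medians ran from -0.64 for the sources of superoxide and peroxide and -0.54 for the stress genes to 0.12 for thioredoxins and peroxiredoxins (log2), beside 0.03 over all genes. Steap4 and Steap3, metalloreductases that reduce iron and copper, were higher in WAT by log2 1.04 (adjusted p = 0.00565) and 0.97 (0.0307). Prdx4, the peroxiredoxin of the secretory pathway, had 12.1 ± 2.00 RPKM in Il33+ WAT-MSC against 33.0 ± 5.20 in lung (log2 -1.38, adjusted p = 0.00352), and Sqstm1, an autophagy receptor and NRF2 target, was lower in WAT by a log2 difference of -1.23 (adjusted p = 0.00880). Cybb, the NADPH oxidase subunit of phagocytes, differed by -2.20 (adjusted p = 0.00258) and Aox3, an aldehyde oxidase, by -1.48 (0.0200). In the stress group 3 of 16 genes were lower in WAT and 2 higher. Dnajb1, a heat shock co-chaperone (log2 -1.18, adjusted p = 0.0143), Ier3 (-1.13, 0.0162) and Fos (-0.96, 0.0362) were lower, and the glucocorticoid-induced Fkbp5 (1.23, 0.04996) and Tsc22d3 (1.31, 0.0476) higher. Of 14 alternative settings, 12 ended the call of Tsc22d3, 9 that of Fkbp5, 8 those of Steap3 and Fos, and 5 those of Aox3, Ier3 and Dnajb1; Ier3 and Fos are named after their values were seen. That group summed to 8910 to 10019 RPKM in lung Il33+ MSC and to 4129 to 7697 RPKM in Il33+ WAT-MSC; its relation to Sod3 was not tested.

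Endothelial cells of WAT were compared with Il33+ WAT-MSC. The labels call the stromal cells mesenteric and name no fat depot for the endothelial cells, so depot may differ along with cell type. Mt1 passed, 1 of 9 beside 3.9% of 8665 genes tested, and was 3.87 times as high in Il33+ WAT-MSC (log2, endothelial minus stromal, -1.90 ± 0.38, adjusted p = 0.0273). Mt2 was 3.13 times as high in stromal cells (log2 -1.69 ± 0.39, adjusted p = 0.0510) and Gpx3 2.91 times (-1.72 ± 0.45, 0.0827), with libraries that did not overlap for Mt1, Mt2 and Gpx3, 3 of 9 beside 23.2% of all genes. Sod3 was at -1.18 ± 0.41 (adjusted p = 0.200) and Cat at -0.66 ± 0.34 (0.403). Gpx1 (0.38 ± 0.34), Sod1 (0.09 ± 0.32), Sod2 (-0.03 ± 0.36, and 0.16 with median-ratio scaling) and Hmox1 (-0.10 ± 0.52, and 0.11 with that scaling) had adjusted p of 0.644 or more. The median of the 9 genes was -0.66, and -0.18 over all genes. Median-ratio scaling moved the median gene by 0.16, and with it Mt1 (-1.69, adjusted p = 0.0186), Mt2 (-1.49, 0.0287) and Gpx3 (-1.51, 0.0173) all passed.

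These endothelial results depended on single libraries and on the fit. The call of Mt1 was lost without replicate 2 (adjusted p = 0.137) or 3 (0.125) of Il33+ WAT-MSC and without replicate 1 (0.0620) or 2 (0.170) of the endothelial cells, and also with no filter on low values (0.0873). With lane as a covariate Mt2 (0.0333) and Gpx3 (0.0455) passed, as they did with all 15 libraries in 1 fit (0.0178 and 0.00425). Without endothelial replicate 3, Mt2 (log2 -2.06, adjusted p = 0.0165), Gpx3 (-2.11, 0.0259) and Sod3 (-1.61, 0.0343) passed. That replicate also held the most stromal transcripts: the median of the 9 stromal markers stood at 28.9, 32.9 and 61.1% of the mean of Il33+ WAT-MSC in endothelial replicates 1, 2 and 3. Gpx3 stood at 14.6, 36.1 and 52.4%, Sod3 at 26.4, 37.6 and 78.2%, Mt2 at 21.6, 24.8 and 49.5% and Mt1 at 20.0, 23.5 and 34.0%, in the same order of replicates. Cat had the opposite order, at 75.4, 63.6 and 45.1%. Sod1 (84.1, 85.8 and 161%), Sod2 (89.4, 73.5 and 126%) and Gpx1 (81.2, 140 and 193%), which did not pass the test, were also highest in replicate 3, and Hmox1 stood at 64.5, 139 and 54.9%. The median-ratio factors of the 3 libraries were 0.729, 1.06 and 1.30. Divided by such factors, a scaling of these percentages chosen after seeing the data, the stromal median was 45.5, 35.2 and 54.2%, Gpx3 22.9, 38.9 and 46.2%, Sod3 41.8, 40.9 and 69.4%, Mt2 33.6, 26.5 and 43.3% and Cat 117, 68.0 and 39.4%, while Mt1, at 31.2, 25.2 and 29.8%, and Sod2, at 141, 79.4 and 111%, were no longer highest in replicate 3. In each WAT population replicate 3 is also the only library sequenced on lane 2, so lane and replicate cannot be told apart there. No defining stromal marker was at 0 in the endothelial libraries, and the part of stromal cells or of their RNA in these levels was not tested. Macrophage markers summed to 11.3, 150 and 53.0 RPKM in endothelial replicates 1, 2 and 3, and the part of such cells was not tested either. Mural markers (6 genes, led by Rgs5 and Acta2) summed to 180 to 263 RPKM, haemoglobin genes (Hba-a1, Hbb-b1 and 4 others) to 19.9 to 411 RPKM and the 2 measured of 7 adipocyte markers (Fabp4 and Cfd) to 189 to 403 RPKM in endothelial cells. That last sum was nearly all Fabp4, at a mean of 267 RPKM against 5.08 for Cfd. Adipoq, Plin1, Lep, Retn and Cidec had no values, so it says little about adipocyte RNA. None of 84 context genes passed in limma, beside 3.9% of all genes tested. Of the 84, 13 had an unadjusted p under 0.05, and the share of all genes under that limit was not computed. The group medians lay between -0.50 and -0.11 (log2), beside -0.18 over all genes. In RNA from a sorted population, fewer cells of a type and less RNA per cell cannot be told apart.

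**Figure D5:**
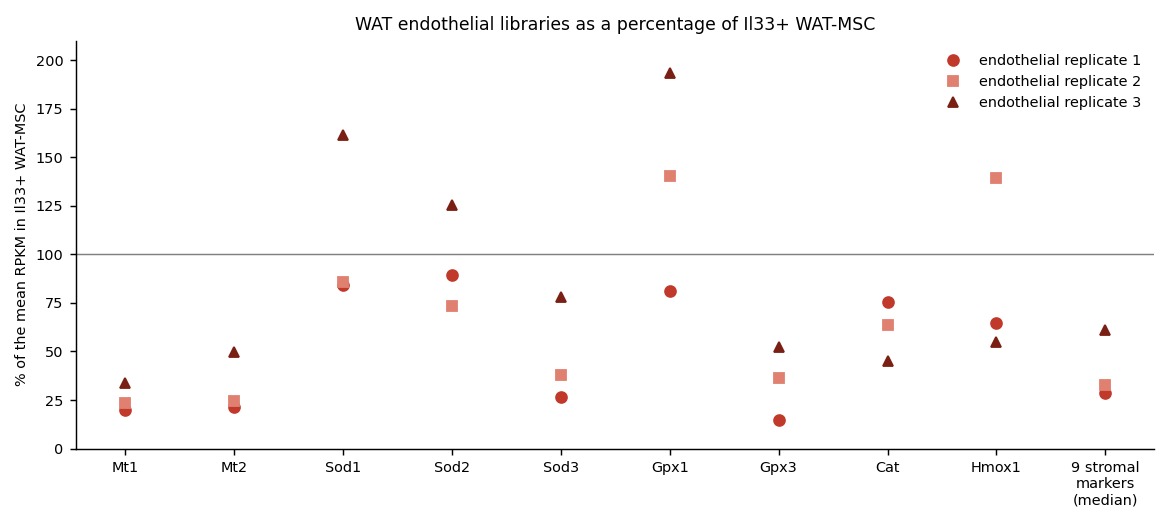
Each point is 1 WAT endothelial library, as a percentage of the mean RPKM in Il33+ WAT-MSC (y axis, grey line at 100%), for the 9 genes and for the median of 9 stromal markers (x axis). All but Cat (45.1%) and Hmox1 (54.9%) are highest in replicate 3, among them Gpx1 (193%), Sod1 (161%) and the stromal markers (61.1%); the values are not scaled, and with median-ratio scaling Mt1 and Sod2 are no longer highest there.

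The sharpest differences were within the lung, between epithelial and stromal cells, where 7 of the 9 genes passed, beside 43% of 9352 genes tested, and 8 of 9 had libraries that did not overlap, beside 53.4% of all genes. Lower in epithelial cells were Sod3 (15.6 times as high in lung Il33+ MSC; log2, epithelial minus stromal, -3.99 ± 0.30, adjusted p = 6.81e-06), Gpx3 (14.7 times; -3.84 ± 0.22, 1.77e-06), Mt2 (4.77 times; -2.11 ± 0.41, 0.00237), Mt1 (2.98 times; -1.55 ± 0.38, 0.00855) and Hmox1 (2.48 times; -1.22 ± 0.26, 0.00456). Higher in epithelial cells were Cat (6.72 times; log2 2.73 ± 0.21, adjusted p = 6.81e-06) and Sod1 (2.52 times; 1.28 ± 0.26, 0.00298). The secreted dismutase and peroxidase were thus higher in stromal cells, and the cytosolic dismutase and catalase in epithelial cells. Gpx1 (-0.63 ± 0.26, adjusted p = 0.0848) and Sod2 (0.43 ± 0.35, 0.353) did not pass. The median of the 9 genes was -1.22, and -0.13 over all genes.

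Median-ratio scaling, which aligns libraries on the median gene and not on the total, moved the median gene of this comparison by 0.19. With it the 7 genes still passed, at -3.74 for Sod3, -3.59 for Gpx3, -1.86 for Mt2, -1.30 for Mt1, -0.97 for Hmox1, 2.98 for Cat and 1.53 for Sod1 (log2). Hmox1 lost its call in 1 of 14 settings, a single fit of all 15 libraries (adjusted p = 0.0932), and the other 6 in none. The log2 difference of Gpx1 was -1.48 when its most abundant transcript stood for the gene (adjusted p = 0.0763). The macrophage list summed to 721 to 1381 RPKM in the epithelial libraries and to 184 to 236 RPKM in the stromal ones. Most of that sum was Lyz2, at a mean of 1006 against 127 RPKM. The others were Chil3 (45.0 against 44.8), Cd68 (12.1 against 12.4), Ear1 (9.97 against 12.1), Marco (2.01 against 2.50), Mrc1 (3.02 against 2.12) and Csf1r (2.85 against 1.52). The stromal list summed to 117 to 213 against 7934 to 10355 RPKM. The part of macrophages or of stromal cells in these differences was not tested.

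Other redox genes of the lung populations also went in both directions: 17 of 89 context genes were higher in epithelial cells and 32 lower (55.1% in all). Among all 9352 genes tested, 18.5% passed as higher in epithelial cells and 24.4% as lower, to be set beside the group counts below. The group medians were -1.71 for stress genes, -0.20 for metal and iron handling, 0.0012 for the sources of superoxide and peroxide, 0.17 for glutathione, 0.24 for thioredoxins and peroxiredoxins and 0.30 for NRF2, haem and NADPH (log2), beside -0.13 over all genes. In the metal and iron group 5 rose and 10 fell of 22. Steap4 (log2 -3.91, adjusted p = 1.35e-06), Steap3 (-3.59, 8.91e-06) and the zinc transporter Slc39a13 (-2.15, 0.00109) differed most. Among genes chosen after their values were seen, Slc30a1, a zinc exporter that Mtf1 controls together with the metallothioneins, was at 5.16 ± 0.477 RPKM in epithelial cells and 0.967 ± 0.235 RPKM in lung Il33+ MSC (log2 1.65, adjusted p = 6.41e-04), opposite in direction to Mt1 and Mt2. Mtf1 itself was at 3.91 ± 0.311 against 2.71 ± 0.275 RPKM and did not pass (adjusted p = 0.223). The part of Mtf1 or of metals in the difference of Mt1 and Mt2 was not tested. Atp7a, the pump that loads copper onto secreted enzymes including Sod3, was lower too (log2 -0.98, adjusted p = 0.0115), and Ccs, the copper chaperone of Sod1, did not pass (0.24, adjusted p = 0.622). Of the ferritin subunits, Ftl1 was higher in epithelial cells (log2 0.75, adjusted p = 0.0286), lost in 4 of 14 settings, and Fth1 did not pass (-0.17, adjusted p = 0.619).

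In the glutathione group 4 of 13 genes were higher and 2 lower in epithelial cells. Gpx2, the epithelial peroxidase, was at 14.3 to 28.8 RPKM in epithelial cells and listed at 0 in all 3 libraries of lung Il33+ MSC (adjusted p = 4.26e-06). Gpx7, a peroxidase of the endoplasmic reticulum, was at 1.02 ± 0.865 against 16.8 ± 5.80 RPKM (log2 -3.18, adjusted p = 1.00e-04), and Selenop, a secreted selenium carrier, at 81.6 ± 12.5 against 613 ± 37.7 RPKM (-2.90, 5.14e-06). Of 4 genes of glutathione synthesis and recycling, named after their values were seen, Gclc (log2 2.31, adjusted p = 2.41e-04), Gclm (1.49, 0.00243) and Gsr (1.85, 5.97e-04) were higher in epithelial cells, and Gss, at 1.13, did not pass (0.0786). Among thioredoxins and peroxiredoxins 3 of 15 rose and 2 fell: Prdx6 was at 172 ± 55.9 against 17.6 ± 3.06 RPKM (log2 3.18, adjusted p = 1.93e-05), Prdx4 differed by -2.20 (1.77e-04) and Sesn1 by -1.81 (0.00298).

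In the NRF2, haem and NADPH group 3 of 17 genes were higher and 2 lower in epithelial cells. Nqo1, a quinone reductase and NRF2 target, was at 11.03 ± 4.26 against 0.990 ± 0.740 RPKM (log2 2.60, adjusted p = 6.49e-04), and Taldo1 differed by 1.22 (0.00725) and Maff by -2.44 (0.00172). Hmox1, also an NRF2 target, had the opposite sign to Nqo1, and Nfe2l2 itself was at 106 ± 25.3 against 84.5 ± 13.6 RPKM (adjusted p = 0.330). The part of NRF2 in these differences was not tested. Of the sources of superoxide and peroxide, Xdh (log2 -2.74, adjusted p = 2.51e-05) and Nox4 (-2.41, 9.31e-05) were lower and Aox3 (1.41, 0.00528) higher, of 6 tested. In the stress and immediate early group 14 of 16 genes were lower in epithelial cells and 1, Hsp90aa1, higher; Dusp1 (-3.23, adjusted p = 2.45e-05), Egr1 (-2.82, 8.78e-05) and Dnajb1 (-2.72, 1.04e-05) differed most. That group summed to 1322 to 2432 RPKM in epithelial cells and to 8910 to 10019 RPKM in lung Il33+ MSC. It moved in the same direction as Mt1, Mt2 and Hmox1, which stress also induces, and its part in their difference was not tested.

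The genes most like each member over the 15 libraries, by Pearson's r of log2(RPKM + 1) among 9981 genes, are given as a description, since libraries of a population share cell type and epithelial cells stand apart. Gpx3 was followed by Itgb5 (0.99), Osr2 (0.99) and Cyp27a1 (0.99), and Sod3 by Zfp36 (0.98), Ctsb (0.98) and C1ra (0.98). Cat was followed by Fam83b (0.97), 1110032A03Rik (0.96) and Casc1 (0.96), and Sod1 by the glutathione reductase Gsr (0.94), Psmb5 (0.94) and Slc22a23 (0.93). Mt1 was most like Mt2 (0.94), then Lamp2 (0.90) and Rhoq (0.89), and Mt2 was most like Tm2d2 (0.94), Mt1 (0.94) and Sult5a1 (0.93). The genes with little difference between populations had lower values, at 0.86 for Sod2 with the mitochondrial Ndufb11, 0.90 for Gpx1 with Fxyd5 and 0.89 for Hmox1 with Nasp. Within the 9 genes, Sod3 and Gpx3 had an r of 0.90 over the libraries and 0.53 after subtracting population means, and Gpx3 and Cat -0.82 and -0.36.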

How the data were processed

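RNA of 15 sorted populations' libraries was amplified with a kit that does not mark strand, sequenced on 2 lanes (8 and 7 libraries) and, per the submitters' processing notes and the study's methods, aligned to mm10 with TopHat2 in Partek Flow. The authors deposited RPKM for 12698 RefSeq transcripts; with no read counts in use, the sampling error of a single value is unknown. From the deposited RPKM, transcripts were summed to 10222 symbols, of which 1786 had more than 1. Groups and replicate numbers came from the sample labels. The test was limma 3.58.1 (R 4.3.3; lmFit, then trended eBayes) with log2(RPKM + 1) as the response. A gene was tested where 3 or more of the libraries in the comparison had 1 RPKM or more. P-values were adjusted over all such genes (Benjamini-Hochberg), and 0.05 was the threshold. The added 1 understates changes of low genes. The fit was tested on simulated data. Alternatives were median-ratio scaling, a pseudocount of 0.1, no filter, a minimum RPKM of 5, the most abundant transcript, a replicate block, lane as a covariate, all 15 libraries in 1 fit, and each library left out. Exon overlaps came from GENCODE vM21 and promoter windows from RefSeq, both GRCm38; 7 of the 9 genes matched a window. Tables and figures used Python 3.11.15, numpy 2.4.6, pandas 2.3.3 and matplotlib 3.10.9.

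The 9 genes and all lists were chosen with earlier results of these data known. Besides them, the text names up to 3 genes past the threshold with the largest change from each context list and comparison, the 2 highest markers of each list, the 3 genes most like each member, Il33, and genes said to be chosen after their values were seen. Symbols of the lists without a row in the table, such as Mt3, Slc7a11, Adgre1 and Adipoq, were not analysed here.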

Additional observations from a re-analysis of the deposited data

How the results depend on the processing

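Of 504 values of the 9 genes under alternative settings, 452 kept their direction and their side of the threshold, 27 changed sign, 13 came to pass the threshold and 12 no longer passed it; no value past the threshold in the pairwise comparisons changed sign. With median-ratio scaling the sign changed for Mt1 between WAT and lung MSC (-0.0067) and for Sod2 (0.16) and Hmox1 (0.11) between endothelial cells and MSC. The other changes of sign came from leaving out 1 library. Between Il33+ and Il33– WAT-MSC the log2 difference then ranged from -0.0592 to 0.44 for Sod1, -0.36 to 0.32 for Sod2, -0.37 to 0.0303 for Sod3, -0.0832 to 0.18 for Gpx3 and -0.60 to 0.51 for Hmox1. Between WAT and lung MSC it ranged from -0.25 to 0.36 for Mt1, -0.15 to 0.60 for Mt2 and -0.76 to 0.12 for Hmox1, and between endothelial cells and MSC from -0.22 to 0.25 for Sod1, -0.28 to 0.19 for Sod2 and -0.49 to 0.45 for Hmox1. Over all genes, the 133 calls between Il33+ and Il33– WAT-MSC became 20 with no filter, where more genes were tested, and 49 to 121 with 1 library left out; the 513 between WAT and lung MSC became 336 with all 15 libraries in 1 fit and 191 to 447 with 1 left out; and the 338 between endothelial cells and MSC became 805 and 56 to 261. Without a library fewer samples enter the fit; the other causes were not tested. Fitted with a replicate block, the 133 calls became 232. The numbers share no stated mouse or day. Deviations of same-numbered libraries correlated at a mean r of 0.07, 0.01, 0.03 and 0.09 in the 4 comparisons, with no comparison above 0.1 in all 3 pairs. Each library was most like its own number in 2 comparisons, Il33+ against Il33– WAT-MSC and epithelial cells against lung MSC. All libraries numbered 1 were sequenced on lane 1 and all numbered 3 on lane 2, so number and lane partly coincide. Whether same-numbered libraries share more than that is not given. Under the block Mt2 (adjusted p = 0.0266) and Gpx3 (0.0313) passed in endothelial cells and Gpx1 (0.0206) in epithelial cells. With 3 libraries a population, smaller differences of Hmox1 and Sod2 were not detectable beside their spread.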
